A study of Homo sapiens with 6 samples.

Results

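Genes of cholesterol and fatty acid synthesis were examined in A549, a human lung adenocarcinoma cell line, with and without overexpression of the cytokine gene IL17D. The set holds 30 genes, taken by name from textbook pathways at a time when earlier results of these data were known: 17 of sterol synthesis, 5 of sterol sensing and transport, and 8 of fatty acid synthesis. All 30 were found among the 58735 genes of the count table, and all 30 were among the 15754 genes with enough counts to be tested. The 3 IL17D libraries came from A549 cells carrying a lentiviral vector with the IL17D open reading frame under the human PGK promoter, with GFP behind an IRES. The 3 control libraries came from A549 cells carrying the empty vector. Both groups were grown in RPMI medium with fetal bovine serum. Nothing in the labels or methods says whether the libraries of a group were separate cultures or transductions, so p-values measure the spread between these libraries, which may be technical.

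Cells make cholesterol from acetyl-CoA through mevalonate, farnesyl diphosphate, squalene and lanosterol, and they make palmitate from acetyl-CoA through malonyl-CoA, after which elongases and desaturases lengthen and desaturate it. Many genes of both routes are targets of the sterol regulatory element binding proteins, which SCAP escorts from the endoplasmic reticulum when sterols are scarce and which INSIG proteins retain there when sterols are plentiful. The protein from SREBF2 acts mainly on sterol genes, and the SREBP-1c form from SREBF1 mainly on fatty acid genes. In the lung, alveolar type II cells need fatty acid synthesis for surfactant.

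Library totals were 14319398 to 16521021 counts, and the biological coefficient of variation, the spread between replicate libraries estimated by edgeR, was 4.40%. IL17D had 24, 18 and 34 counts in the control libraries and 31274, 32155 and 26772 in the IL17D libraries, which follows the labels. The epithelial markers KRT8 and KRT18 were abundant in every library, whereas EPCAM stayed at or below 1.31 CPM (counts scaled by edgeR to the library's total after TMM). Of the alveolar type II markers, SFTPC, SFTPB, SFTPA1 and NKX2-1 were at or below 0.554 CPM in every library, and ABCA3 was at 83.0 CPM in control and 85.1 CPM in IL17D cells. Markers of other cell types were near 0 apart from COL1A1, at 19.2 to 24.2 CPM: the 3 leukocyte markers summed to 0.746 to 1.11 CPM in control and 0.669 to 1.22 CPM in IL17D libraries, with PTPRC at 0 throughout, the 3 endothelial markers to at most 0.608 CPM and the 2 hepatocyte markers to at most 0.484 CPM. CDH1, which encodes E-cadherin, was the 1 of 4 epithelial markers that passed the test, with 43.4 ± 2.65 CPM in control and 35.7 ± 3.32 CPM in IL17D cells (SD, n = 3; log2 fold change -0.28, edgeR adjusted p = 0.0306), and its part in the results on lipid genes was not tested. In bulk RNA, fewer cells of a type and less RNA per cell cannot be told apart.

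SREBF1, SCD, ELOVL6 and FADS2 passed the test as lower in IL17D cells, and no member passed it as higher. These are the gene of a lipogenic transcription factor and 3 genes of fatty acid desaturation and elongation. By the fitted fold changes they fell by 12.2% to 20.4%. None of the 17 sterol synthesis genes passed the test, where 1.58% of all tested genes did. A gene was called when its two-sided p from the quasi-likelihood test of edgeR, adjusted by the Benjamini-Hochberg method over all tested genes, was under 0.05. By this rule 4 of 30 members were lower (13.3%), against 0.908% of all tested genes called lower, and 0 of 30 were higher, against 0.673%, with the same counts from DESeq2 and limma voom. At an unadjusted p under 0.05, 12 members were lower and 1 was higher, where 5.99% and 5.59% of all tested genes were. The 3 IL17D libraries lay wholly below the 3 control libraries for 12 members and wholly above for 1, and the corresponding shares of all tested genes were 8.31% and 7.48%. The log2 fold change was below 0 for 22 of 30 members, with a median of -0.07, against 50.1% of all tested genes and a median of -0.00044. The changes were small, between -0.33 and 0.23 on the log2 scale over the 30 members. Members were measured more closely than most genes, with a median SE of 0.061 against 0.096 over all tested genes. The lowest control mean was 11.4 CPM among members and 0.023 CPM among all tested genes. The part of this precision in the shares above was not tested.

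**Figure D1:**
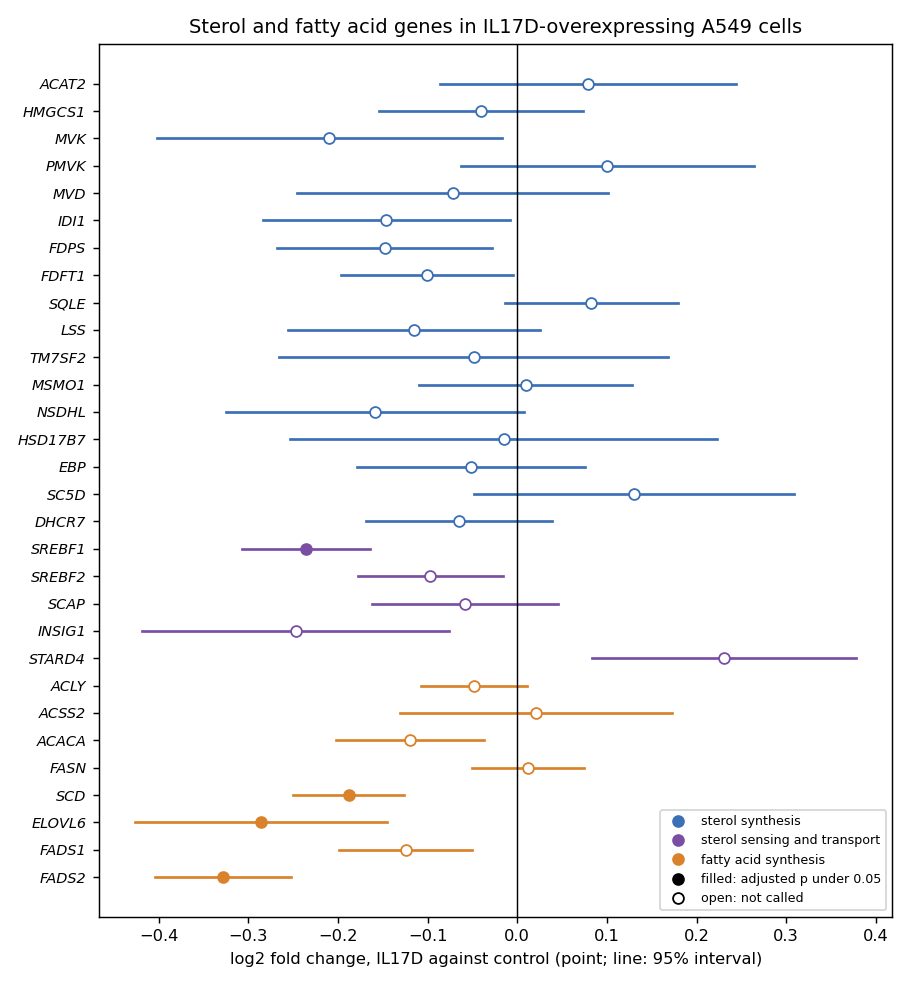
Log2 fold change of each of the 30 members, IL17D against control (x axis), with its 95% interval, in pathway order (y axis). The 4 filled points, SREBF1, SCD, ELOVL6 and FADS2, passed an adjusted p under 0.05 and lie between -0.33 and -0.19, and all 17 sterol synthesis genes are open.

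Upstream sequence is shown for the 4 members that fell and for 2 genes of the sterol arm, so that the letters before their starts can be compared. SREBF2 was taken because it alone of the 26 members with a promoter window held the sterol regulatory element searched for. MVK was taken because it held many CCAAT boxes, so both were chosen for their sequence. RefSeq (GRCh38.p14) gave promoter windows, from 250 bases before to 50 bases after the start, for 26 of the 30 members. FASN, ACAT2, SQLE and FDFT1 had no window and were not searched. The 250 bases before the start are printed 5′ to 3′ on the strand of the gene, and capitals mark matches on either strand to a sterol regulatory element (TCACNCCAC), a CCAAT box (CCAAT, bound by NF-Y) or a GC box (GGGCGG, bound by Sp1). FADS2 had 2 windows, of which the one holding a CCAAT match is shown.
SREBF1, chr17:17836987-17837236, minus strand: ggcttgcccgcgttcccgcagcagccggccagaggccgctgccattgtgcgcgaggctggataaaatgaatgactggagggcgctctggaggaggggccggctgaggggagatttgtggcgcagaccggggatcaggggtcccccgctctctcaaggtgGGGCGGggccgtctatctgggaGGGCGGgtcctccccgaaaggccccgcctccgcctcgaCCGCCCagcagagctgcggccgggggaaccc
SCD, chr10:100346983-100347232, plus strand: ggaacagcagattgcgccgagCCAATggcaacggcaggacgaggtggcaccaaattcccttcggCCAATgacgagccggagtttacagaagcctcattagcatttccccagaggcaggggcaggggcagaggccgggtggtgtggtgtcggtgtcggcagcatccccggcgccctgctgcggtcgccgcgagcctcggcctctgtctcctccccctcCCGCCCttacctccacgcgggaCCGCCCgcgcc
ELOVL6, chr4:110198616-110198865, minus strand: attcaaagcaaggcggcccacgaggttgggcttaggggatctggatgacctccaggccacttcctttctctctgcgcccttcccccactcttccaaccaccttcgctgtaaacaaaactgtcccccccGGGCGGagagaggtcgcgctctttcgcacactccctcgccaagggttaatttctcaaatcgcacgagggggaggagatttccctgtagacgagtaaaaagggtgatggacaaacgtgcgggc
FADS2, chr11:61816154-61816403, plus strand: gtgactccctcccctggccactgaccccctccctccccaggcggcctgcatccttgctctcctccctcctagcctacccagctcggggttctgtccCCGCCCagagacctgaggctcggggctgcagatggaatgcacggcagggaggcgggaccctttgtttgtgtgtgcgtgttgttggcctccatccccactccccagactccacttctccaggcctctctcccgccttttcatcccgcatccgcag
SREBF2, chr22:41832855-41833104, plus strand: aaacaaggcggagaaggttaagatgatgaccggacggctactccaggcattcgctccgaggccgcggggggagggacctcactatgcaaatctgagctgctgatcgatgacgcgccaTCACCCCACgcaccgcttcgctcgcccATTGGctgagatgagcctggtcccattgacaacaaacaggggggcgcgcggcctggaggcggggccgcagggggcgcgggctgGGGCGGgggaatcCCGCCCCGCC
MVK, chr12:109573544-109573793, plus strand: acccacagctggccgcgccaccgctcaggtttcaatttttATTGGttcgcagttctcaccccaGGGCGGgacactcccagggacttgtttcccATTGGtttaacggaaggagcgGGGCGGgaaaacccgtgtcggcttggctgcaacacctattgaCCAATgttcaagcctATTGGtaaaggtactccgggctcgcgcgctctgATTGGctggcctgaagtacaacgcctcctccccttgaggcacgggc

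SREBF1 had 1 window, at the 5′ end of the gene, so any start farther inside the gene was not searched. That window held 3 GC boxes, at 91, 69 and 31 bases upstream of its start, and no CCAAT box. SCD, in contrast, held CCAAT boxes at 229 and 186 bases upstream and GC boxes at 33 and 11. ELOVL6 held a single GC box at 122 bases upstream. The printed FADS2 window had a GC box at 154 bases upstream and a CCAAT box beginning 6 bases downstream of the start, outside the printed bases. In SREBF2 a sterol regulatory element lay 133 bases upstream, with a CCAAT box at 106. The letters of no motif contain those of another, and the last 2 GC boxes of SREBF2, at 10 and 5 bases upstream, overlap each other. MVK held 5 CCAAT boxes, at 210, 157, 94, 79 and 46 bases upstream.

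CCAAT boxes were found in windows of 21 of 26 members (80.8%), whereas 39.7% of 27305 genes with a RefSeq window had one. Among tested genes the share was 42.7%. Within the set, 13 of 14 sterol synthesis genes and 5 of 7 fatty acid synthesis genes with a window held one. Counted over windows instead, 69.4% of 36 member windows and 34.6% of all windows had a match. GC boxes were in windows of 25 of 26 members (96.2%), against 48.3% of all genes and 76.5% of tested genes. The sterol regulatory element occurred in 1 of 26 members, SREBF2, and in 1.39% of all genes. These are matches to letters in a short window, and sites with other letters or farther away were not searched.

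The 5 genes of sterol sensing and transport included 1 gene called lower (20%, against 0.908% of all tested genes). SREBF1 (ENSG00000072310, chr17:17810399-17837002, GRCh38) was at 314, 313 and 296 CPM in the control libraries and at 263, 259 and 261 CPM in the IL17D libraries. Every IL17D library was below every control library, and the IL17D libraries lay closer together. The means were 307 ± 10.0 and 261 ± 1.58 CPM (SD, n = 3), and the log2 fold change was -0.24 (SE 0.035, edgeR adjusted p = 5.0e-05). Counts were per gene, so SREBP-1c cannot be told apart from other forms of SREBF1. SREBF1 shared 6.03% of its 31-base stretches with other annotated genes, among them RAI1, which was not called (log2 fold change -0.04, edgeR adjusted p = 0.837).

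SREBF2, which encodes the paralogous factor, was at 183, 172 and 176 CPM in control and at 167, 168 and 161 CPM in IL17D cells. The groups did not overlap, yet the gene was not called (log2 fold change -0.10, SE 0.040, edgeR adjusted p = 0.308). The ratio of SREBF1 to SREBF2 counts, which is not corrected for gene length, was 1.74 ± 0.0708 in control and 1.58 ± 0.0381 in IL17D libraries (SD, n = 3), with no overlap between the groups and no test made. INSIG1, the endoplasmic reticulum retention protein and itself a sterol-responsive gene, was at 29.6, 30.6 and 27.9 CPM in control and at 21.8, 26.8 and 25.5 CPM in IL17D cells. Its libraries did not overlap either, with IL17D replicate 1 lowest, and it was not called (log2 fold change -0.25, SE 0.084, edgeR adjusted p = 0.172). Without IL17D replicate 1 its log2 fold change was -0.16 (edgeR adjusted p = 0.582). SCAP, the escort protein, had a log2 fold change of -0.06 and overlapping groups.

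STARD4, a cytosolic carrier of cholesterol, was the member with the largest value above 0. It was at 30.6, 32.1 and 36.2 CPM in control and at 38.7, 39.6 and 37.8 CPM in IL17D cells. All IL17D libraries were above all control libraries, but control replicate 3 came near them. The log2 fold change was 0.23 (SE 0.072, edgeR adjusted p = 0.116). Without control replicate 3 the edgeR adjusted p was 0.0257, and this was the 1 of 13 alternatives that called STARD4. Without control replicate 1 the edgeR adjusted p was 0.414.

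**Figure D2:**
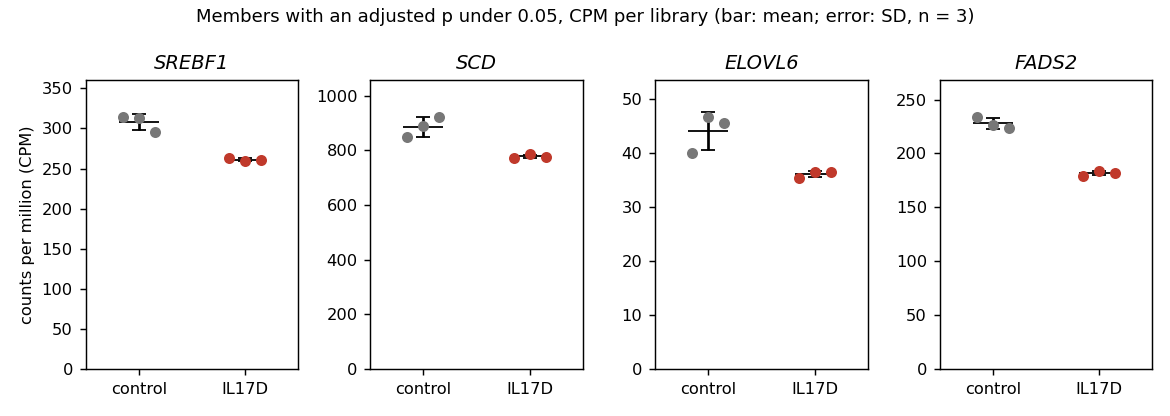
CPM (y axes, each from 0) of the 4 members that fell, in the 3 control and 3 IL17D libraries, with the mean and SD of each group. In each panel all 3 IL17D libraries lie below all 3 control libraries, and for SREBF1, SCD, ELOVL6 and FADS2 the SD is smaller in the IL17D group.

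Of the 8 fatty acid synthesis genes, 3 were called lower (37.5%, against 0.908% of all tested genes). All 3 encode enzymes that desaturate or lengthen fatty acids. FADS2 (ENSG00000134824, chr11:61792980-61867354), a desaturase for the first step from linoleic and alpha-linolenic acid to longer polyunsaturated fatty acids, was at 233, 226 and 224 CPM in control and at 179, 183 and 182 CPM in IL17D cells. The gap between the groups was wider than the range within either. The means were 228 ± 4.98 and 181 ± 1.90 CPM (SD, n = 3), and the fitted log2 fold change was -0.33 (SE 0.037, edgeR adjusted p = 2.9e-07), and the gene ranked 13 by p among all tested genes. SCD (ENSG00000099194, chr10:100347124-100364834), which makes oleate and palmitoleate, was at 850, 890 and 921 CPM in control and at 773, 786 and 776 CPM in IL17D cells. It did not overlap between groups, and control replicate 1 was nearest to the IL17D libraries. The means were 887 ± 35.8 and 778 ± 6.85 CPM (SD, n = 3), and the fitted log2 fold change was -0.19 (SE 0.030, edgeR adjusted p = 0.00017). SCD shared 13.1% of its 31-base stretches with other genes, among them AC126365.1, which had 0 counts in every library.

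ELOVL6 (ENSG00000170522, chr4:110045846-110199199), the elongase of palmitate, was at 40, 46.6 and 45.6 CPM in control and at 35.4, 36.4 and 36.5 CPM in IL17D cells. The groups did not overlap, and control replicate 1 stood nearer to the IL17D libraries than the other control libraries did. The log2 fold change was -0.29 (SE 0.069, edgeR adjusted p = 0.0205). The call held without control replicate 1 (edgeR adjusted p = 0.00593) and was lost without any other library: the edgeR adjusted p was 0.151 without control replicate 2, 0.0735 without control replicate 3, and 0.106, 0.0517 and 0.0873 without IL17D replicates 1, 2 and 3. The calls of FADS2, SREBF1 and SCD held without any 1 library.

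FADS1, the desaturase that acts after FADS2 in the polyunsaturated route, was at 241, 253 and 252 CPM in control and at 232, 225 and 227 CPM in IL17D cells. The groups did not overlap, and the gene was not called (log2 fold change -0.12, SE 0.036, edgeR adjusted p = 0.0817). FADS1 and FADS2 lie on opposite strands and overlap over 4.44% of the exon bases of FADS2 and 4.79% of those of FADS1, and strand is not stated for the counting, so reads there cannot be told apart. Their count ratio, FADS2 to FADS1, was 0.917 ± 0.0441 in control and 0.796 ± 0.0210 in IL17D libraries (SD, n = 3). That ratio did not overlap between groups and was not tested.

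ACACA, the acetyl-CoA carboxylase that makes malonyl-CoA, was at 173, 183 and 189 CPM in control and at 163, 168 and 170 CPM in IL17D cells. It was not called, although its groups did not overlap (log2 fold change -0.12, SE 0.041, edgeR adjusted p = 0.166). FASN, the synthase that builds palmitate, had overlapping groups with means of 701 ± 8.59 and 707 ± 25.9 CPM (SD, n = 3). Its log2 fold change was 0.01 with a 95% interval from -0.05 to 0.07, so a fall as large as that of SCD lies outside the interval. ACLY, which makes cytosolic acetyl-CoA from citrate, was at 678, 684 and 682 CPM in control and at 653, 661 and 663 CPM in IL17D cells. Its groups did not overlap and the change was small (log2 fold change -0.05, edgeR adjusted p = 0.574). ACSS2, which makes acetyl-CoA from acetate, had a log2 fold change of 0.02 and overlapping groups. The SCD to FASN count ratio, not corrected for length, was 1.27 ± 0.0578 in control and 1.10 ± 0.0458 in IL17D libraries (SD, n = 3), without overlap and without a test. Like the ratios of SREBF1 to SREBF2 and FADS2 to FADS1, it sets a called gene over an uncalled one and is no separate support.

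Over the 8 fatty acid synthesis genes, the median log2 fold change was -0.12, with 6 of 8 below 0, against 50.1% of all tested genes. The 4 desaturase and elongase genes had a median of -0.24 and 3 lower calls by edgeR's adjusted p, against 0.908% of all tested genes. The 4 genes from acetyl-CoA to palmitate had a median of -0.02 and 0 calls. Of these 4, ACACA was lower at an unadjusted p under 0.05, against 5.99% of all tested genes. This split was not planned, and it puts the 3 called genes of the list together, so it is no separate support. The difference between these subsets was not tested. Summed over the list, the fatty acid synthesis genes took 2954, 3006 and 3046 CPM in control and 2804, 2783 and 2777 CPM in IL17D libraries. These sums did not overlap. SCD, FASN and ACLY were their largest parts. The means of these genes were 887, 701 and 681 CPM in control and 778, 707 and 659 CPM in IL17D libraries. The sums include the called SCD, FADS2 and ELOVL6 and are no separate support. Per length, in RPKM (CPM divided by the gene's length in kilobases), the members with the highest control means were SCD at 165, ACLY at 131 and FASN at 74.8, and the lowest was HSD17B7, a sterol gene, at 2.38.

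**Figure D3:**
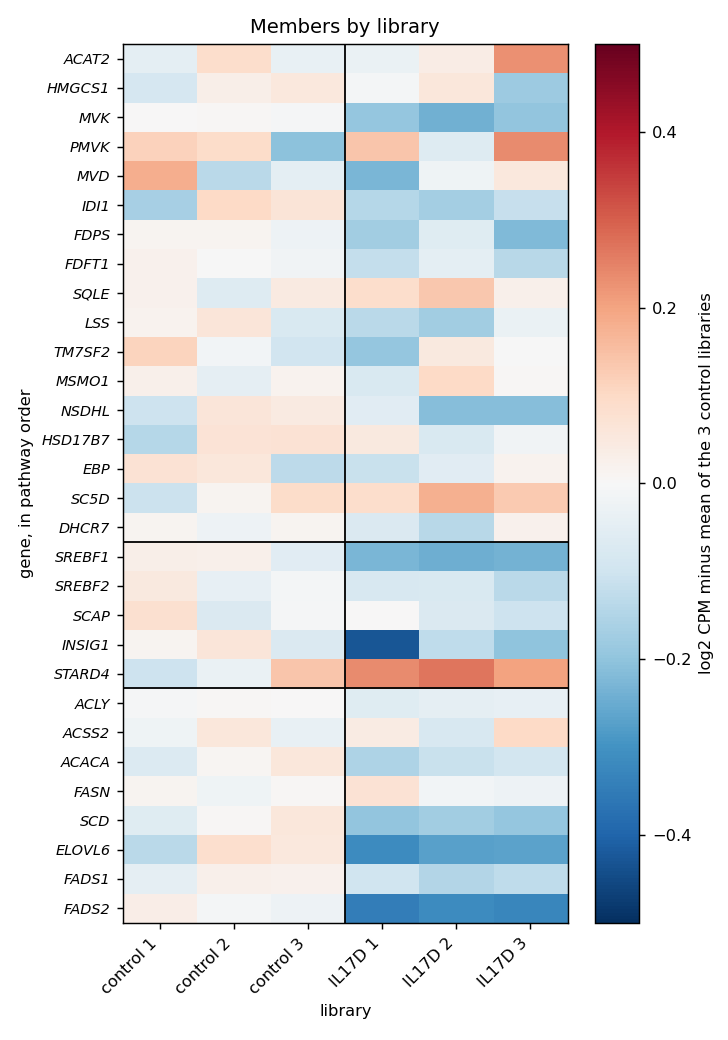
Log2 CPM of each member (y axis) in each of the 6 libraries (x axis), minus the mean of the 3 control libraries. Rows from SREBF1 to INSIG1 and from SCD to FADS2 are mostly blue in the IL17D columns, STARD4 is red, and the sterol synthesis rows above them are mixed.

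Among the 17 sterol synthesis genes, 0 passed the adjusted threshold of edgeR's test, where 1.58% of all tested genes did. At so low a share, 0 of 17 does not set these genes apart. At an unadjusted p under 0.05, 4 were lower (23.5%, against 5.99% of all tested genes). The lowest adjusted p in the list was 0.289. DESeq2 and limma voom also called 0 of these 17 genes, with 1 and 4 lower at an unadjusted p under 0.05. In either direction, 1211 and 1829 of all 15754 tested genes were at that p by DESeq2 and limma voom, against 1823 by edgeR. The median log2 fold change was -0.05, with 12 below 0 and 5 above, where 50.1% of all tested genes were below 0. It was -0.10 without control replicate 3, -0.09 without IL17D replicate 2 and -0.08 without IL17D replicate 3. Summed over the list, sterol synthesis genes took 802 ± 4.67 CPM in control and 779 ± 9.92 CPM in IL17D libraries (SD, n = 3), and the sums did not overlap. Without a test of the difference, the sterol and fatty acid lists are not shown to differ from each other.

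In the route from acetyl-CoA to farnesyl diphosphate, 3 of 7 genes were lower at an unadjusted p under 0.05, against 5.99% of all tested genes. MVK, mevalonate kinase, was at 18.8, 18.8 and 18.7 CPM in control and at 16.4, 15.9 and 16.3 CPM in IL17D cells. The groups did not overlap (log2 fold change -0.21, SE 0.095, edgeR adjusted p = 0.375). FDPS, which makes farnesyl diphosphate, was at 57.7, 57.7 and 56.2 CPM in control and at 50.7, 54.9 and 49.1 CPM in IL17D cells. These groups did not overlap either (log2 fold change -0.15, SE 0.059, edgeR adjusted p = 0.289), and FDPS shared 23.3% of its 31-base stretches with other genes, among them RUSC1-AS1. IDI1, which interconverts the isopentenyl diphosphates, was at 42.2, 50.7 and 49.6 CPM in control and at 42.9, 42.0 and 43.7 CPM in IL17D cells. Control replicate 1 fell within the IL17D range (log2 fold change -0.15, SE 0.068, edgeR adjusted p = 0.391), and without it the log2 fold change was -0.22 (edgeR adjusted p = 0.134). Without control replicate 2 the edgeR adjusted p was 0.743.

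The other genes of that route had overlapping groups. HMGCS1, the synthase of HMG-CoA, had a log2 fold change of -0.04 with a 95% interval from -0.15 to 0.07. MVD, the decarboxylase that ends the mevalonate steps, was at -0.07, PMVK, the kinase after MVK, at 0.10, and ACAT2, a thiolase, at 0.08 on the same scale. ACAT2 is uncertain because 50.3% of its 31-base stretches occurred in other genes, TCP1 among them.

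From farnesyl diphosphate to lanosterol, FDFT1, squalene synthase, was at 96.6, 94.99 and 94.0 CPM in control and at 87.6, 92.0 and 86.5 CPM in IL17D cells. The libraries did not overlap and the gene was not called (log2 fold change -0.10, SE 0.047, edgeR adjusted p = 0.397). SQLE, squalene epoxidase, had a log2 fold change of 0.08 and LSS, lanosterol synthase, of -0.12, both with overlapping groups. In the steps from lanosterol to cholesterol, 0 of 7 genes reached an unadjusted p under 0.05, where 11.6% of all tested genes did. With 7 genes, a count of 0 is near that share. TM7SF2, a sterol reductase, was at -0.05 in log2 fold change, MSMO1, the methyl sterol oxidase, at 0.01 and NSDHL, which removes methyl groups with it, at -0.16. HSD17B7, the ketoreductase of the same complex, was at -0.02 and shared 22.7% of its stretches with other genes, its pseudogene HSD17B7P2 among them. EBP, the sterol isomerase, was at -0.05, SC5D, a sterol desaturase, at 0.13, and DHCR7, the reductase of the last step of one branch, at -0.07.

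**Figure D4:**
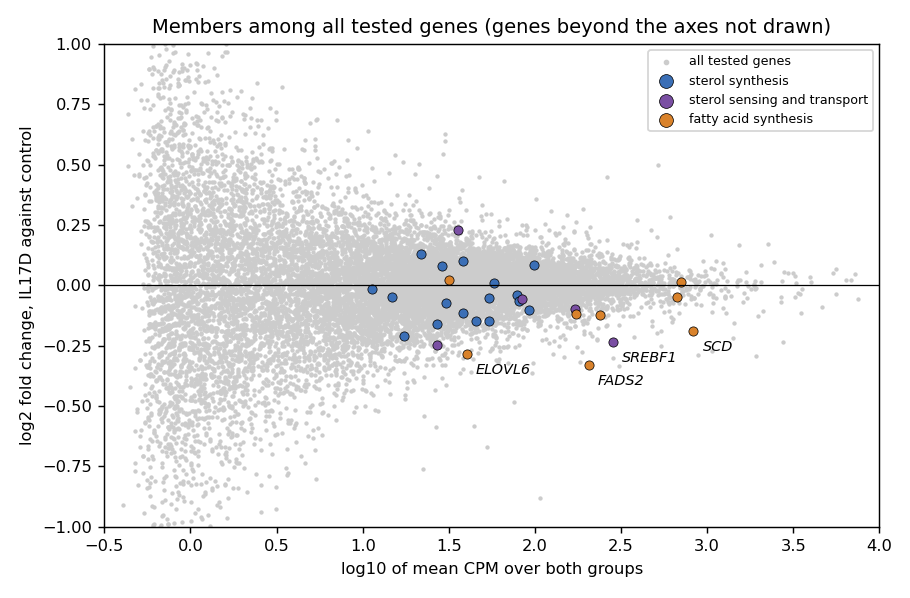
Log2 fold change (y axis) against the log10 of the mean CPM over both groups (x axis, log scale) for all tested genes (grey) and the 30 members (coloured by list), with genes beyond the axes not drawn. FADS2, SREBF1, SCD and ELOVL6 lie on the lower edge of the cloud at their level, and most sterol synthesis genes lie inside it.

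Genes of neighbouring lipid pathways were taken from 7 lists with 126 genes, of which 122 were tested. Of these, 4 of 122 passed the adjusted threshold (3.28%, against 1.58% of all tested genes), and all 4 were lower. DESeq2 called 1 of them and limma voom 2, and ABCG1 and LPIN1 are described here. ABCG1, a sterol exporter, was at 13.2, 11.9 and 13.6 CPM in control and at 8.94, 9.67 and 9.88 CPM in IL17D cells. The groups were apart (log2 fold change -0.44, SE 0.12, edgeR adjusted p = 0.0431).

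LPIN1, a phosphatidate phosphatase that also controls nuclear SREBP, was at 48.7, 53.4 and 50.8 CPM in control and at 40.5, 45.4 and 43.9 CPM in IL17D cells. Its groups did not overlap (log2 fold change -0.24, SE 0.064, edgeR adjusted p = 0.0495). LPIN1 was the 1 called gene of 16 in the list of SREBP control (6.25%, against 1.58% of all tested genes). The calls of ABCG1 and LPIN1 were lost in several alternatives. ABCG1 was not called by DESeq2 (adjusted p = 0.104) or limma voom (0.0545), nor in edgeR without control replicates 1 (0.149) or 3 (0.135) or IL17D replicates 1 (0.203), 2 (0.0977) or 3 (0.101). LPIN1 was not called with DESeq2 size factors (0.0518), by DESeq2 (0.0985) or limma voom (0.0566), nor in edgeR without control replicates 1 (0.0536), 2 (0.253) or 3 (0.0781) or IL17D replicates 1 (0.306) or 3 (0.145).

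In 4 of the other lists the gene with the smallest p was not called. DHDDS, which makes dolichol precursors, was at 19.9 ± 1.10 CPM in control and 23.6 ± 1.93 CPM in IL17D cells (SD, n = 3; edgeR adjusted p = 0.216), and SLC25A1, the mitochondrial citrate carrier, at 102 ± 3.76 and 93.5 ± 3.84 CPM (edgeR adjusted p = 0.254). PLIN2, the lipid droplet coat protein, was low, at 1.87 ± 0.402 and 1.12 ± 0.136 CPM (edgeR adjusted p = 0.379). The median log2 fold change was -0.06 for sterol uptake and storage (19 genes), -0.05 for other fatty acid synthesis (22 genes), -0.03 for acyl-CoA and glycerolipid genes (17), -0.01 for the isoprenoid branches (15), -0.0020 for the further sterol synthesis genes (7) and 0.05 for SREBP control (16). The list of fatty acid oxidation (26 genes), at -0.08, was the lowest.

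**Figure D5:**
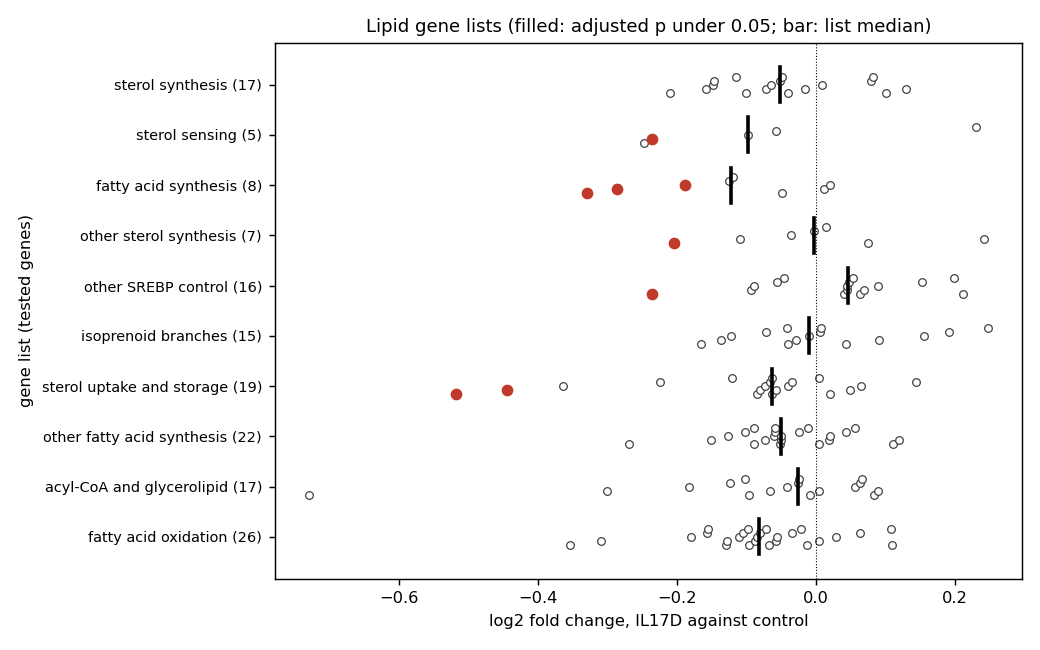
Log2 fold change (x axis) of each tested gene in the 3 member lists and 7 neighbouring lipid lists (y axis), with bars at the list medians. Red points mark the 8 genes with an adjusted p under 0.05, all below 0, of which 4 are in the 3 member lists.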

How the data were processed

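Total RNA of 3 IL17D and 3 control A549 libraries was sequenced, and the authors deposited 1 table of raw read counts per gene, without normalization. The labels' processing notes name Bowtie2 and hg38. The counting tool, its annotation and its use of strand are not given in the sources used here, and the labels and methods name different Illumina sequencers. All genes carry GENCODE 29 coordinates on GRCh38. Members and lists were chosen with earlier results of these data known.

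Genes were filtered with filterByExpr, scaled by TMM and compared in edgeR 4.0.16 (R 4.3.3) by the quasi-likelihood test without covariates, two-sided, with Benjamini-Hochberg adjustment over 15754 genes, which held at least 99.8% of each library's counts. A count of 3, the limit that a count of 0 allows, was 0.182 to 0.210 CPM, and covers counting error only. CPM followed TMM scaling, RPKM used the table's gene lengths, SE was the log2 fold change divided by the root of F, and intervals are 95%. The fit was tested on simulated data. Full statistics were given for members with an unadjusted p under 0.05 and the 2 smallest p of each member list; of other lists, called genes and the smallest p were named, from a mean of 1 CPM, and 2 called genes are not reported here. Alternatives were DESeq2 1.42.0 (test and size factors), limma 3.58.1 voom, total counts, 2 other count filters, a replicate block and each library left out. The counts at an unadjusted p, the calls by direction and the neighbouring genes were added to these after the data were seen. The subsets of pathway steps within the lists were not planned. Sequence in common was measured as 31-base stretches of GENCODE 29 transcripts, with Python 3.11.15.

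Replicate numbers were checked for pairing, which they did not show (values in the closing section).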

Additional observations from a re-analysis of the deposited data

How the results depend on the processing

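The 4 called members were the same 4 genes under each of the 7 alternatives that keep all libraries, and 3 to 4 members were called when 1 library was left out. FADS2, SREBF1 and SCD were called under all 13 alternatives. STARD4 was called without control replicate 3 in place of ELOVL6. Members at an unadjusted p under 0.05 numbered 9 to 13 with 1 library left out. The medians then ranged from -0.148 to -0.102 for fatty acid synthesis, from -0.117 to -0.071 for sterol sensing and from -0.0967 to -0.048 for sterol synthesis. Calls over all genes ranged from 145 to 267, with 69 to 129 higher and 76 to 138 lower, and the lowest counts came without IL17D replicate 3; the cause was not tested.

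Of 390 member values under alternatives, 378 kept their direction. The 12 that reversed belonged to 7 uncalled members near 0, each with 1 library left out: ACSS2 (range -0.0164 to 0.0695), FASN (-0.018 to 0.0314), HMGCS1 (-0.0918 to 0.0235), HSD17B7 (-0.083 to 0.0235), MSMO1 (-0.038 to 0.0533), MVD (-0.136 to 0.0277) and TM7SF2 (-0.101 to 0.0229).

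With the replicate block, 272 genes were called (115 higher and 157 lower) and the same 4 members. Same-numbered libraries correlated in their deviations from the group means at 0.073, -0.11 and -0.068 over 9741 genes, so the numbers were not taken to pair the libraries, and 1 of 6 libraries correlated best with its own number. The all-gene median was 0.0011 with DESeq2 size factors and -0.0034 with total counts. With 3 libraries a group and the spread seen here, the median SE of a member was 0.061 in log2, which limits what a small change can show.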

Other observations

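Genes of fatty acid oxidation, the route that opposes the synthesis described above, had the lowest median of the 7 neighbouring lists. Of 26 tested genes, 21 had a log2 fold change below 0, with a median of -0.08, against 50.1% of all tested genes. None was called by edgeR's adjusted p, where 1.58% of all tested genes were. At an unadjusted p under 0.05 in edgeR, 7 were lower and 0 higher, where 5.99% and 5.59% of all tested genes were. DESeq2 and limma voom also called 0, with 5 and 6 lower at that unadjusted p. In either direction, 1211 and 1829 of all 15754 tested genes were at that p by DESeq2 and limma voom, against 1823 by edgeR. HSD17B4, a peroxisomal enzyme of beta-oxidation, had the smallest p. It was at 84.1, 86.9 and 84.3 CPM in control and at 75.4, 75.5 and 78.2 CPM in IL17D libraries, without overlap (log2 fold change -0.16, SE 0.049, edgeR adjusted p = 0.116).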
